A study of Caenorhabditis elegans with 3 samples.

Results

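The metal and heme homeostasis genes of Caenorhabditis elegans described here are 9 genes chosen by name: the metallothionein genes mtl-1 and mtl-2, the ferritin genes ftn-1 and ftn-2, and the heme-responsive genes hrg-1, hrg-2, hrg-3, hrg-4 and hrg-7. Of these 9, 8 had a probe assigned to that gene alone, out of 15089 genes tested, and each of the 8 had 1 probe with a value on all 3 arrays. The gene hrg-2, whose protein is a heme-binding membrane protein of the hypodermis, had no probe assigned to it alone and was not analysed here.

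RNA of adult hermaphrodites was compared with a mixed reference RNA from wild-type worms, the comparator on every array. The 3 preps (preps 1 to 3) form 1 group, and each was hybridised on its own 2-colour array. The adults are labelled "TP11 adult w/ emb 2"; "w/ emb" is read here as carrying embryos, and the code TP11 and the number 2 are left unread. The labels name no strain, no age in hours or days and no feeding of the adults, nor the metal or heme content of their food, and the stages that went into the reference are not named. The labels put the adults in channel 2 and describe each array as hermaphrodites against the reference, so a positive log2 ratio is taken to mean that the adults had more of the RNA; because the dyes are not named, this direction is likely and not settled. If it were turned, every log2 ratio would change sign, the genes and background shares given as higher and lower would swap, and each rank from the top would be the same rank from the bottom and the reverse.

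Metallothioneins are small cysteine-rich proteins that bind zinc, copper and cadmium, and their genes are switched on by heavy metals in the intestine. Ferritin stores iron inside the cell, and ftn-1 is made mainly in the intestine, where it is repressed when iron is scarce, while ftn-2 is expressed more widely. C. elegans cannot make heme and must take it from its food: HRG-4 carries heme into intestinal cells, HRG-1 moves it out of their storage organelles, HRG-3 delivers it from the intestine to other tissues and to embryos, and HRG-7 is a secreted aspartic protease through which the intestine signals its heme state.

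In the adults, mtl-1 and both ferritin genes were lower than in the reference, hrg-7 was higher, and mtl-2, hrg-4, hrg-1 and hrg-3 did not pass the test. The test was limma's moderated test of the mean log2 ratio against 0, with each array centred on its median; the 19710 probes measured on all 3 arrays entered the Benjamini-Hochberg adjustment, and the threshold was 0.05. Thus 4 of 8 genes passed, against 33.9% of all genes. Of the 8, 3 were lower, against 17.9% of all genes, and 1 was higher, against 16.1%. The median of the mean log2 ratio was 0.10 over the 8 genes and −0.03 over all genes tested.

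The heme-signalling gene hrg-7 had log2 ratios of 2.63, 2.16 and 2.62 in preps 1, 2 and 3. All 3 preps were far above 0, with prep 2 the lowest. The mean of 2.47 ± 0.27 (SD, n = 3) corresponds to a 5.54-fold higher amount in the adults, with a 95% interval of the log2 ratio from 2.07 to 2.87 and an adjusted p of 9.0e-06 in limma. The gene ranked 11 from the top among the 15089 genes and lay at or above the 99.7 percentile of the genes on every array.

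The metallothionein gene mtl-1 stood at the other end, with log2 ratios of −2.11, −2.48 and −2.16 in preps 1, 2 and 3. The 3 preps lay close together, and prep 2 was the lowest. The mean was −2.25 ± 0.20 (SD, n = 3), a 4.76-fold lower amount in the adults (95% interval of the log2 ratio −2.64 to −1.86, adjusted p = 1.3e-05 in limma). Of the 15089 genes, it was number 149 from the bottom.

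Its relative mtl-2 had log2 ratios of 0.65, 0.30 and 0.54, positive in every prep. The mean was 0.50 ± 0.18 (SD, n = 3), with a 95% interval from 0.11 to 0.88, and the adjusted p of 0.05004 in limma missed the threshold (unadjusted p = 0.016). This call turned on the processing: mtl-2 passed as higher without centring (adjusted p = 0.037), with scaled arrays (0.035), with quantile normalization (0.023), with a robust prior (0.049996) and with a running median along the probe IDs removed (0.032), and did not pass with any prep left out or with probes on at least 2 arrays.

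**Figure D1:**
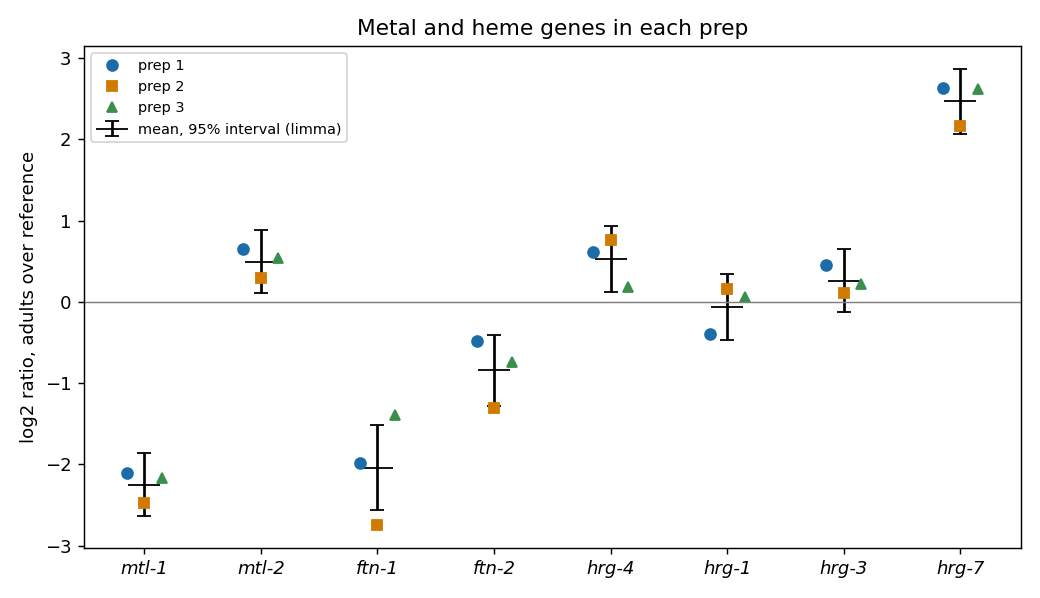
Log2 ratios (adults over reference, each array centred on its median) of the 8 measured genes in each prep, with points for preps 1, 2 and 3, a bar for the mean and whiskers for limma's 95% interval. The points of mtl-1 and ftn-1 all lie below −1.3 and those of hrg-7 above 2.1, while hrg-1 has points on both sides of 0.

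Between the metallothionein genes the difference in log2 ratio was nearly the same on each array. The ratio of mtl-1 minus that of mtl-2 was −2.76, −2.77 and −2.70 in preps 1, 2 and 3, with a mean of −2.75 ± 0.04 (SD, n = 3), a 6.71-fold difference between their adult-to-reference ratios. It is a difference of ratios and says nothing of which gene has more RNA. An exact two-sided sign-flip permutation test gave p = 0.25, the smallest that 3 arrays allow. The sequences of these probes were not used here, so binding of a probe to RNA of the related gene was not tested.

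The ferritin gene ftn-1 had log2 ratios of −1.99, −2.74 and −1.39 in preps 1, 2 and 3. All were negative, with the widest spread of the 8 genes. The mean was −2.04 ± 0.68 (SD, n = 3), a 4.11-fold lower amount in the adults (95% interval −2.56 to −1.52, adjusted p = 0.00013 in limma). Among the 15089 genes it was number 216 from the bottom.

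For ftn-2, the more broadly expressed ferritin gene, the log2 ratios were −0.48, −1.3 and −0.74. Prep 2 was again the lowest and prep 1 the closest to 0. The mean of −0.84 ± 0.42 (SD, n = 3) is 1.79-fold less RNA in the adults, with an adjusted p of 0.0075 in limma, and the call was lost without prep 2 (mean −0.61, adjusted p = 0.083). In every prep ftn-1 had a lower ratio than ftn-2, by −1.50, −1.44 and −0.65 (mean −1.2 ± 0.48, SD, n = 3; exact sign-flip permutation p = 0.25, the smallest possible).

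Among the heme genes other than hrg-7, the importer gene hrg-4 had log2 ratios of 0.62, 0.77 and 0.19 in preps 1, 2 and 3. All were positive, and prep 3 was the lowest. Its mean of 0.52 ± 0.30 (SD, n = 3; 95% interval 0.12 to 0.93) missed the threshold with an adjusted p of 0.05003 in limma (unadjusted p = 0.016). It passed as higher under the same 5 alternatives as mtl-2, with adjusted p from 0.023 with a running median along the probe IDs removed to 0.049996 with a robust prior, and failed with any prep left out or with probes on at least 2 arrays.

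The heme carrier gene hrg-3, which serves delivery to embryos, had log2 ratios of 0.45, 0.12 and 0.22, with a mean of 0.26 ± 0.17 (SD, n = 3). Its 95% interval ran from −0.12 to 0.65 and its adjusted p in limma was 0.294. The vesicle heme transporter gene hrg-1 had −0.39, 0.16 and 0.06, so that prep 1 and the other preps lay on opposite sides of 0. Its mean was −0.06 ± 0.29 (SD, n = 3), with a 95% interval from −0.46 to 0.34 and an adjusted p of 0.843 in limma, and without prep 1 the mean was 0.11.

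Of the 4 measured heme genes, hrg-7 thus stood apart from the others. The ratio of hrg-7 exceeded that of hrg-3 by 2.18, 2.05 and 2.39 in preps 1, 2 and 3 (mean 2.21 ± 0.17, SD, n = 3; exact sign-flip permutation p = 0.25). The ratio of hrg-1 minus that of hrg-4, both heme transporters of the same family, was −1.01, −0.61 and −0.13, with a mean of −0.58 ± 0.44 (exact sign-flip permutation p = 0.25). In all, 5 such pairs were compared, and none could pass with 3 arrays. The fifth pair, mtl-1 minus ftn-1, changed sign between preps (−0.12, 0.27 and −0.77; exact sign-flip permutation p = 0.75).

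From low to high, the mean ratios ran mtl-1, ftn-1, ftn-2, hrg-1, hrg-3, mtl-2, hrg-4 and hrg-7. Neighbours whose values over the 3 preps did not overlap were ftn-1 and ftn-2, ftn-2 and hrg-1, and hrg-4 and hrg-7. The ratios of mtl-1 and ftn-1 overlapped, as did those of hrg-1 and hrg-3, of hrg-3 and mtl-2, and of mtl-2 and hrg-4. The gene hrg-7 stood above hrg-4 by 1.95 ± 0.52, and ftn-2 above ftn-1 by 1.2 ± 0.48 (SD, n = 3).

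**Figure D2:**
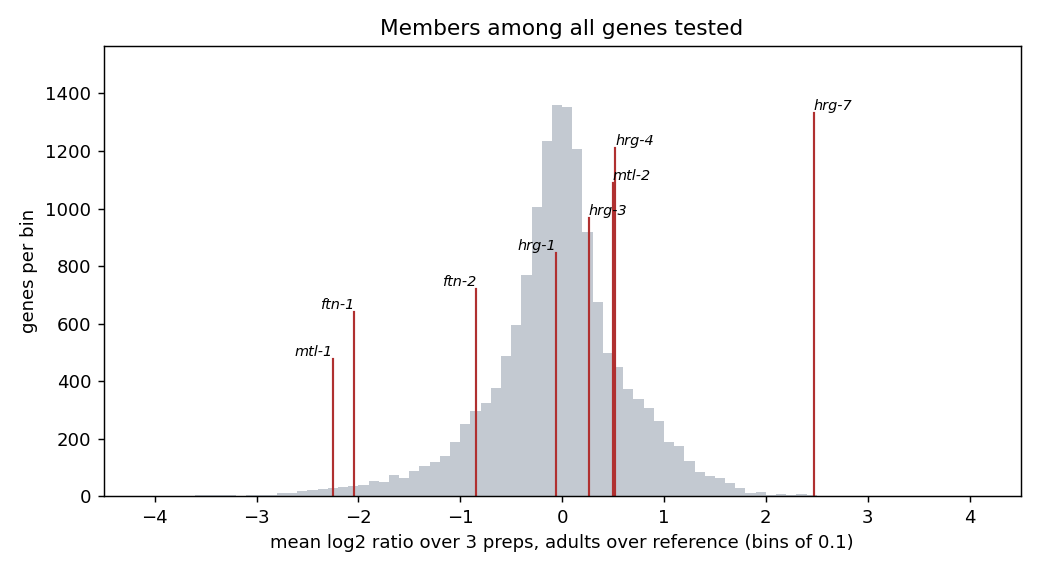
Histogram of the mean log2 ratio (adults over reference, 3 preps) of the 15089 genes tested, as genes per bin of 0.1, with a red line at the mean of each of the 8 genes; the heights of the red lines only make room for the names. The few genes with a mean below −4.5 lie outside the plotted range. The genes mtl-1 and ftn-1 lie in the lower tail and hrg-7 in the upper tail, while hrg-1 lies near the centre.

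The spread of the ratios differed between the arrays, with robust SDs of 0.770, 0.483 and 0.368 in preps 1, 2 and 3, so positions within each array were compared as well. Among the genes of preps 1, 2 and 3, mtl-1 lay at the 1.89, 1.21 and 0.593 percentile and ftn-1 at the 2.35, 0.789 and 2.40 percentile. Both were thus within the lowest part of every array whatever its spread. The position of ftn-2 was less even, at the 27.6 percentile in prep 1 against 6.50 in prep 2 and 7.76 in prep 3. The position of hrg-4 ranged from the 69.9 percentile in prep 3 to the 92.7 in prep 2, and that of mtl-2 from 76.7 to 85.9.

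The genes whose ratios were nearest to hrg-7 over the 3 arrays were glh-2, a germ granule helicase gene, Y9D1A.2 and the collagen gene col-101. Likeness was measured as the root mean square distance of the log2 ratios over 3 preps, which was 0.20, 0.31 and 0.32 for these genes. Nearest to mtl-1 were F47B8.3 (distance 0.05), tag-209 (0.07) and the nuclear hormone receptor gene nhr-21 (0.11). Over 3 arrays such a distance describes similar ratios and no more.

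Other genes of metal and heme handling were described through 7 lists with 81 measured genes, of which 10 were higher in the adults, 19 were lower and 52 did not pass. The share that passed was 35.8%, against 33.9% of all genes, and the median log2 ratio was −0.16. The counts below stand beside the same backgrounds of 16.1% higher and 17.9% lower.

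In the iron list, 2 of 11 genes were lower and 0 were higher in limma (3 and 1 at an unadjusted p under 0.05), with a median log2 ratio of 0.01. The lower ones were egl-9 and hif-1. The gene egl-9, which encodes the prolyl hydroxylase that marks HIF-1 for destruction, had log2 ratios of −1.49, −2.06 and −1.43 (mean −1.66 ± 0.35, SD, n = 3, adjusted p = 0.00012 in limma). The gene hif-1, whose transcription factor represses ftn-1 when iron is scarce, was lower at −0.97, −0.81 and −0.43 (mean −0.74 ± 0.28, adjusted p = 0.010 in limma). The call of hif-1 was lost with a running median along the probe IDs removed (mean −0.35, adjusted p = 0.168), which left 1 of 11 genes called. The ferroportin-type iron exporter genes fpn-1.2 (−0.01 ± 0.21) and fpn-1.3 (0.01 ± 0.41) and the divalent metal transporter gene smf-2 (0.02 ± 0.12) did not pass. Also without a call were vhl-1 (0.14 ± 0.30, adjusted p = 0.622 in limma), which acts with egl-9, and aha-1 (−0.47 ± 0.19, adjusted p = 0.063), the dimer partner of hif-1, which passed as lower with scaled arrays (0.042), quantile normalization (0.028) and a running median along the probe IDs removed (0.019); these genes were added after their values were seen.

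Of 3 further measured genes of heme trafficking, hrg-9 was lower, with log2 ratios of −2.02, −1.32 and −0.69 (mean −1.34 ± 0.66, SD, n = 3, adjusted p = 0.0015 in limma). The intestinal heme exporter gene mrp-5 (0.40 ± 0.23) and the heme-binding membrane protein gene vem-1 (−0.09 ± 0.14) did not pass. The globins, heme-binding proteins, had 10 of 25 genes lower and 0 higher in limma (13 and 0 at an unadjusted p under 0.05). Their median was −0.52. The lowest were glb-17 (−1.34 ± 0.27), glb-22 (−1.33 ± 0.90) and glb-10 (−1.03 ± 0.12), and glb-31 (0.04 ± 0.23), glb-7 (0.09 ± 0.12) and glb-29 (−0.16 ± 0.19) did not pass.

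Zinc transport genes went both ways, with 5 of 17 higher and 2 lower and a median of 0.10. The ZIP-type transporter gene zipt-7.1 averaged 1.31 ± 0.26 (SD, n = 3, mean of 2 probes), zipt-9 1.09 ± 0.38 and toc-1 0.82 ± 0.51, and all 3 were higher. Lower were cdf-2 (−0.79 ± 0.30, adjusted p = 0.0070 in limma), which stores zinc in intestinal granules, and zipt-13 (−0.55 ± 0.22), which no longer passed once prep 2 (adjusted p = 0.263), prep 3 (0.082) or a running median along the probe IDs (0.076) was taken out. The genes zipt-7.2 (0.10 ± 0.27), zipt-2.4 (−0.12 ± 0.27) and zipt-16 (−0.24 ± 0.17) did not pass.

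Of 4 copper genes measured, 3 were higher and the median was 0.62. They were sco-1 (1.04 ± 0.68, SD, n = 3), which brings copper to cytochrome c oxidase, cutc-1 (0.69 ± 0.43) and the copper-pumping ATPase gene cua-1 (0.55 ± 0.37, adjusted p = 0.049 in limma), while the copper chaperone gene cox-17 (0.14 ± 0.60) did not pass. Prep 1 was high throughout this list, with a list mean of 1.17 against 0.31 in prep 2 and 0.33 in prep 3. Without prep 1, or with a running median along the probe IDs removed, 1 of the 4 was called. The call of cua-1 also ended without prep 2 (adjusted p = 0.125) and with probes on at least 2 arrays (0.054).

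Heavy metal detoxification genes included 3 of 13 that were lower and 2 that were higher, with a median of 0.14. The metal-induced gene numr-2 had log2 ratios of −3.68, −3.47 and −1.90, the lowest of all the metal and heme genes measured (mean −3.02 ± 0.98, SD, n = 3, adjusted p = 4.8e-05 in limma). Its near-identical copy numr-1 (−0.13 ± 0.53) did not pass, and since a probe may bind RNA of both copies, their values are uncertain. Of the cdr family, cdr-2 (−1.0 ± 0.36) and cdr-3 (−0.99 ± 0.61) were lower. Within the same family, cdr-1 (0.70 ± 0.47) was higher, a call lost without prep 2 (mean 0.45, adjusted p = 0.238 in limma). The gene hmt-1, which encodes an ABC transporter that protects against cadmium, was higher at 0.77 ± 0.04, and cdr-4 (−0.14 ± 0.27) and cdr-7 (0.14 ± 0.41) did not pass.

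Of 9 transcription regulators listed with these genes, 2 were lower and 0 higher in limma (4 and 1 at an unadjusted p under 0.05), with a median of −0.24, and 4 were lower after quantile normalization. Beside hif-1, pqm-1, a zinc finger transcription factor of the intestine, was lower with log2 ratios of −1.50, −1.76 and −1.59 (mean −1.61 ± 0.14, SD, n = 3, adjusted p = 8.3e-05 in limma). The FOXO gene daf-16 (0.18 ± 0.38), the bZIP factor gene atf-7 (0.19 ± 0.20) and the Mediator subunit gene mdt-15 (0.23 ± 0.35) did not pass.

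**Figure D3:**
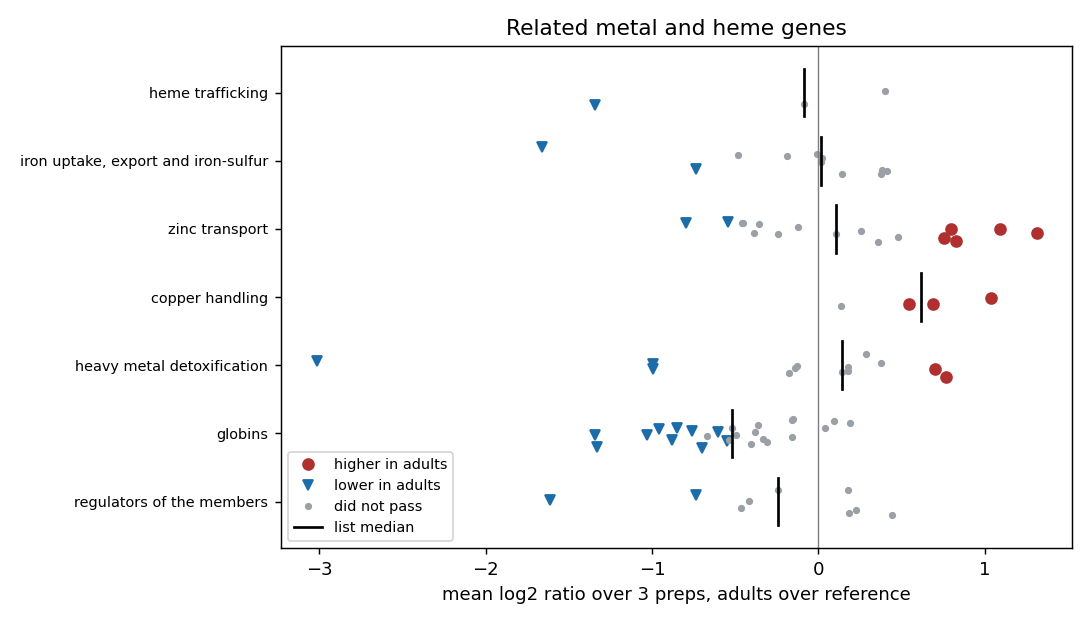
Mean log2 ratio (adults over reference, 3 preps) of each measured gene of the 7 lists of related genes, with red circles for genes higher in the adults, blue triangles for lower ones, grey dots for genes that did not pass, and a black line for each list's median; points are spread vertically only for legibility. All called globins lie below 0 and all called copper genes above 0, while zinc transport and detoxification genes lie on both sides.

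Whole worms were compared. The lower ratio of a gene may come with a smaller share of a cell type or with less of its RNA per cell. These cannot be told apart. Of 15 intestinal marker genes, 5 were higher and 1 was lower, with a median of 0.20 and list means of 0.57, 0.01 and 0.15 in preps 1, 2 and 3; pgp-1 (1.73 ± 0.81) was highest and the intermediate filament gene ifb-2 (−1.11 ± 0.13) was the lower one. Of 8 hypodermal markers, 2 were higher and 3 lower, with a median of −0.17. Of the higher ones, lin-26 (0.68 ± 0.50) lost its call without prep 1 (adjusted p = 0.104 in limma). It also lost it with a running median along the probe IDs removed (0.065). Of 8 oocyte, embryo and yolk markers, 6 were higher and 0 lower in limma (also at an unadjusted p under 0.05). With the yolk protein genes included, the list means were 2.03, 1.22 and 1.46 in preps 1, 2 and 3. The yolk receptor gene rme-2 averaged 2.45 ± 0.74. The yolk protein genes of this list are not read here as markers of oocytes or embryos. Of them, vit-2 (1.00 ± 0.35) was higher, while vit-5 (−0.15 ± 0.27) and vit-6 (0.22 ± 0.15) did not pass. The part of any cell type in the ratios of the 8 genes was not tested.

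**Figure D4:**
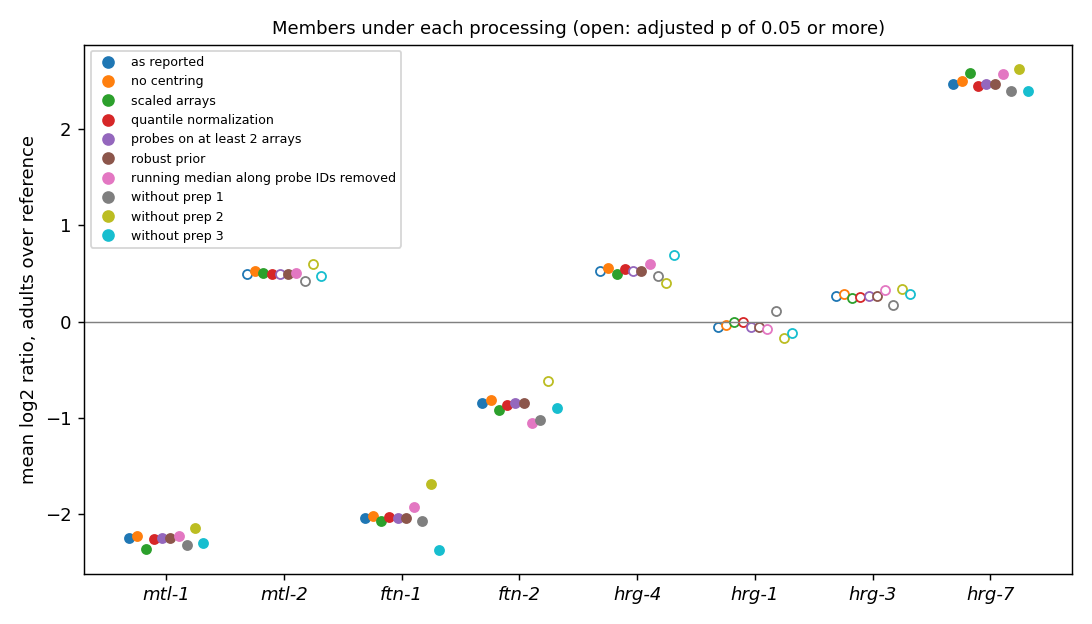
Mean log2 ratio (adults over reference) of each of the 8 genes as reported and under 9 alternative ways of processing, with filled points for an adjusted p under 0.05 and open points otherwise. The points of mtl-1, ftn-1 and hrg-7 are filled throughout, those of ftn-2 are filled except without prep 2, and those of mtl-2 and hrg-4 are partly open.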

How the data were processed

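The authors deposited a table of log2 ratios for 20000 probes with 1 column per array. The sources used here do not say how the values were made and centred. As log2, 100% of the values correspond to a ratio in steps of 0.001 (within 0.00005, ratios under 3), against 10.7% as natural logs. The medians of the deposited log2 columns were 0.019, 0.072 and −0.0087 for preps 1, 2 and 3. No filter on dim spots was possible without intensities, and the number of arrays limits the precision.

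Of the probes, 15655 had 1 gene in the platform annotation, 198 had several and 4147 none. Symbols were updated by gene ID (15569) or accession (9) through a RefSeq table of assembly WBcel235, and 77 were kept. The 19710 probes with values on all 3 arrays were centred on each array's median and fitted with limma 3.58.1 in R 4.3.3 (intercept only, eBayes), with 2 residual and 8.96 prior degrees of freedom and a median standard error of 0.18. The fit was tested on simulated data. A gene with several probes takes the mean over them and their largest adjusted p, and counts as passing when at least 1 probe passes. Nothing says that the preps were separate cultures, so the spread behind the p-values, that between these samples, may be technical. With 1 array per prep, batch and prep cannot be told apart.

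The members and lists were chosen with earlier results of these data known. From each of the 7 related lists, up to 3 highest and 3 lowest genes past the threshold were named. Up to 3 nearest to 0 among the others were named too, as were the 3 genes nearest to the highest and lowest member. Of the marker lists, only some genes were named. Alternatives were no centring, scaling, quantile normalization, probes on at least 2 arrays, a robust prior, a running median of 301 probes removed, and each prep left out.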

Additional observations from a re-analysis of the deposited data

How the results depend on the processing

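Over the 9 alternatives, mtl-1 (−2.36 to −2.14), ftn-1 (−2.37 to −1.69) and hrg-7 (2.39 to 2.63) kept their direction and their side of the threshold in limma, and hrg-3 (0.17 to 0.34) passed in none. Between 3 and 6 of the 8 members were called, with 3 and 4 as the lowest and highest when a prep was left out. Of all probes 6302 were called, between 5138 and 7466 under the alternatives, and of the genes of the related lists 29, between 24 and 37. Leaving out a prep gave 5138 to 5394 probes and 24 to 29 genes. The difference between mtl-1 and mtl-2 was −2.86 with scaled arrays, and that between mtl-1 and ftn-1 ran between −0.448 and 0.0721 with a prep left out, turning positive without prep 3. Genes near 0 that passed under no setting turned sign. Their mean log2 ratios with each prep left out spanned 0 for cdr-4 (−0.262 to 0.00295), cdr-7 (−0.0291 to 0.37), cox-17 (−0.20 to 0.368), daf-16 (−0.0445 to 0.288), fpn-1.2 (−0.102 to 0.108), fpn-1.3 (−0.22 to 0.146), glb-31 (−0.0321 to 0.171), hrg-1 (−0.168 to 0.106), ifc-2 (−0.0108 to 0.101), numr-1 (−0.353 to 0.164), smf-2 (−0.0457 to 0.0649), vhl-1 (−0.0301 to 0.241), zipt-2.4 (−0.217 to 0.0309) and zipt-7.2 (−0.0199 to 0.249). The sign of fpn-1.2 also turned without centring (0.0221), and those of fpn-1.3 and glb-31 with scaled arrays (−0.0764 and −0.00394) and after quantile normalization (−0.091 and −0.0113). With a running median along the probe IDs removed it turned for fpn-1.2 (0.107), fpn-1.3 (−0.0224), glb-31 (−0.226), glb-7 (−0.0583), mdt-15 (−0.0203) and vem-1 (0.0454). The cause was not tested. No paired comparison of groups was possible because the arrays form 1 group. With 3 arrays, log2 ratios whose interval spans 0, such as that of hrg-3, were not detectable as different from 0.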
